A study of Homo sapiens with 19 samples.

Results

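The measurements described here are the enhancer-barcode readings of pMYC reporters in the larger of the element libraries tested with this promoter, the one that holds elements with TRE5 and TRE6 names. Members were all elements with a DNA signal above 0 summed over the DNA libraries of that table. There were 2564 of them, of 3422 different element names in the series as a whole. Of these, 961 had TRE5 names (555 loci), 373 had TRE6 names (231 loci), and 1230 had other names. None of the TRE5 or TRE6 elements was in the smaller pMYC library, against 1143 of the 1230 others.

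A transcriptional regulatory element is a stretch of DNA that transcription factors bind. As a promoter it starts transcription at its own position, and as an enhancer it raises transcription from a promoter elsewhere. QUASARR-seq reads both activities from 1 plasmid: a barcode transcribed from the tested element reports promoter activity, and a barcode transcribed from a separate minimal promoter reports enhancer activity. A minimal promoter on its own drives little transcription, so RNA of its barcode beyond the amount of plasmid DNA is read as enhancer activity of the element. Here the minimal promoter was pMYC, named for MYC, a proto-oncogene that is highly transcribed in many cancer cells.

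The cells were K-562, a human chronic myeloid leukaemia line that grows in suspension and is easy to transfect. Plasmid pools carrying the minimal promoters pGAPDH, pMYC and pAPOBEC3F together were electroporated, with 20 µg of plasmid for each of 5 electroporations per technical replicate. Cells were harvested after 6 h without any other treatment, so the readings came from transiently transfected plasmids and not from the chromosomes. Enhancer barcodes were then read in 2 libraries made from RNA and in 2 libraries made from plasmid DNA recovered from the cells. The labels number these libraries Rep1 and Rep2 without saying whether the number marks a biological or a technical replicate, so the p-values below measure only the spread between these libraries. The labels do not explain the letters in the element names, which are used here as names only. Element sequences and positions were not analysed here.

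The deposited signal of each element was a whole number of reads multiplied by 1 factor per library. The RNA libraries held 409486 and 434897 reads over the members and the DNA libraries held 842532 and 827262 reads. The median element had 97 and 102 reads in the RNA libraries and 222 and 220 reads in the DNA libraries. A total of 3 members had fewer than 10 DNA reads over both DNA libraries, and 78 had fewer than 50. After scaling by the authors, the signal summed to 1199617 and 1182628 in the RNA libraries and to 845640 and 833534 in the DNA libraries. A log2 RNA/DNA ratio of 0 is therefore set by the authors' scaling, and the elements this scaling was tied to are not given in the sources used here. The RNA libraries differed from each other by more than counting noise (chi-square over its degrees of freedom 1.26, p = 1.6e-18), as did the DNA libraries (1.08, p = 3.9e-03).

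RNA signal was higher than DNA signal at 1010 elements and lower at 191, while 1363 passed the test in neither direction. These are 39.4% and 7.45% of the 2564 elements at a Benjamini-Hochberg adjusted p under 0.05 (limma, two-sided). The ratios had a median of 0.19 on the log2 scale, their middle 50% ran from -0.09 to 0.64, and the full range was -2.46 to 4.78. TRE6 elements were called higher more often than this background, at 209 of 373 (56.0%), and lower less often, at 16 (4.29%), with a median log2 ratio of 0.45. TRE5 elements lay near the background, with 332 of 961 higher (34.5%), 70 lower (7.28%) and a median of 0.15. Among elements with other names, 469 of 1230 were higher (38.1%), 105 were lower (8.54%) and the median was 0.17. No test was made between name groups, since the orientations of a locus share its sequence.

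Where the zero point was moved to the median of all elements, the calls became 759 higher and 525 lower, and higher calls made up 59.1% of all calls against 84.1% under the authors' scaling. The same shift left TRE6 at 177 higher and 36 lower (83.1% of its calls higher, against 92.9%). TRE5 had 235 higher and 205 lower calls after the shift (53.4% higher, against 82.6%), and its median turned to -0.04. The shift subtracts the same 0.19 from every element, so these changes follow from the medians above. Without the variance trend there were 879 higher and 121 lower calls, and at an adjusted p under 0.01 there were 872 and 82. The number of lower calls is thus less certain than that of higher calls. A fit without 1 library keeps 1 library of that kind, so its p-values measure spread between libraries of the other kind alone. Without an RNA library, the spread between RNA libraries is not measured. Each count below from such a fit carries this limit.

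The TRE6 elements fell into name classes that differed in level. The 132 elements of the classes HPHP, HRHP and HRHR had 91 higher calls (68.9%) and a median log2 ratio of 0.89. Lower calls numbered 0 by limma, 0 at an unadjusted p under 0.05 and 0 by edgeR, and 1 and 5 by limma without RNA replicate 1 and 2. HRHR had 1 lower call without the variance trend and 1 with zero at the median of all elements, where HPHP and HRHP had 0. By class, HPHP had 27 of 35 elements higher with a median of 1.00, HRHP 36 of 53 with a median of 0.87, and HRHR 28 of 44 with a median of 0.85. These 3 classes were close to each other, their medians lying within 0.15 of the log2 scale, while the replicate medians of HRHP alone differed by more, at 1.04 and 0.83. In all, 60 of the 132 elements (45.5%) were called at least 2-fold higher, against 15.8% of all 2564 elements. The 3 classes took up 4.02% of the RNA reads and 2.28% of the DNA reads.

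The other 241 TRE6 elements, whose names carry 020S, 060S or 200S, had 118 higher calls (49.0%), 16 lower calls (6.64%) and a median of 0.31. In class 020S, 61 of 116 were higher and 6 lower, with a median of 0.30. Class 060S was alike, with 49 of 105 higher, 5 lower and a median of 0.33. Without DNA replicate 1 or 2 the lower calls were 0 in 020S, and 0 or 1 in 060S, which had 10 without RNA replicate 1. Class 200S had 20 elements, of which 8 were higher and 5 lower (2 lower without either DNA library), and its replicate medians were 0.40 and 0.07, so that its level was the least certain of these 3. The groups also differed in depth. The HPHP, HRHP and HRHR elements had a median of 203 DNA reads, against 508 for the 020S, 060S and 200S elements. Over all names, 5.11% of elements with 200 to 399 DNA reads were called lower, and 8.32% of those with 400 to 799. Whether depth bears on the lower calls of the groups was not tested.

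Among TRE5 elements the level followed the letters after TRE5. The 671 elements of the GC classes had 293 higher calls (43.7%), 28 lower calls (4.17%) and a median of 0.25. Within them GCCC had 99 of 223 higher (median 0.30), GCLR 88 of 204 (median 0.26) and GCNC 106 of 244 (median 0.19). The shares of higher calls were thus near-identical at 44.4%, 43.1% and 43.4%. Lower calls numbered 4 in GCCC, 6 in GCLR and 18 in GCNC. They were 27, 27 and 53 with zero at the median of all elements, 2, 2 and 8 without the variance trend, 10, 13 and 30 without RNA replicate 1 and 16, 12 and 28 without RNA replicate 2. Without DNA replicate 1 they were 1, 0 and 6, and without DNA replicate 2 they were 1, 0 and 9. The 210 NGCC elements ran the other way, with 18 higher (8.57%) and 28 lower (13.3%) and a median of -0.07. The NGCC calls were 9 or 8 higher and 13 or 10 lower without DNA replicate 1 or 2, and 26 or 32 higher and 49 or 43 lower without RNA replicate 1 or 2. With zero at the median of all elements they were 7 higher and 75 lower. Their highest element, TRE5NGCC0092.rev, had RNA signals of 800 and 819 and DNA signals of 321 and 308, a log2 ratio of 1.36 ± 0.07 (SD, n = 2 libraries of each kind). That is well short of the top of the GC classes, each of which exceeded 3.

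The 80 elements of the SP classes were split, with 21 higher calls, 14 lower calls and a median of -0.00 (middle 50% from -0.37 to 0.55). They were also shallower, with a median of 184.5 DNA reads against 483 in the GC classes. The largest SP class, SPNN, had 8 higher and 5 lower calls among 38 elements, and its highest member, TRE5SPNN0074.fwd, reached 2.35 ± 0.10. Of the 5 SPNR elements 2 were called higher and 3 lower, with 1 higher and 2 lower left without DNA replicate 1, and 1 of each without DNA replicate 2. SPNL had 6 higher and 2 lower of 17, and SPON 4 higher and 3 lower of 16. SPOL had 3 elements with 1 call each way, and the single SPOR element was not called. Without DNA replicate 1 or 2, lower calls in SPNN fell to 2 or 1, in SPNL to 0 and in SPON to 2 or 1, so the lower calls of these small classes are uncertain. The SPOL higher call was lost without either DNA library.

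**Figure D1:**
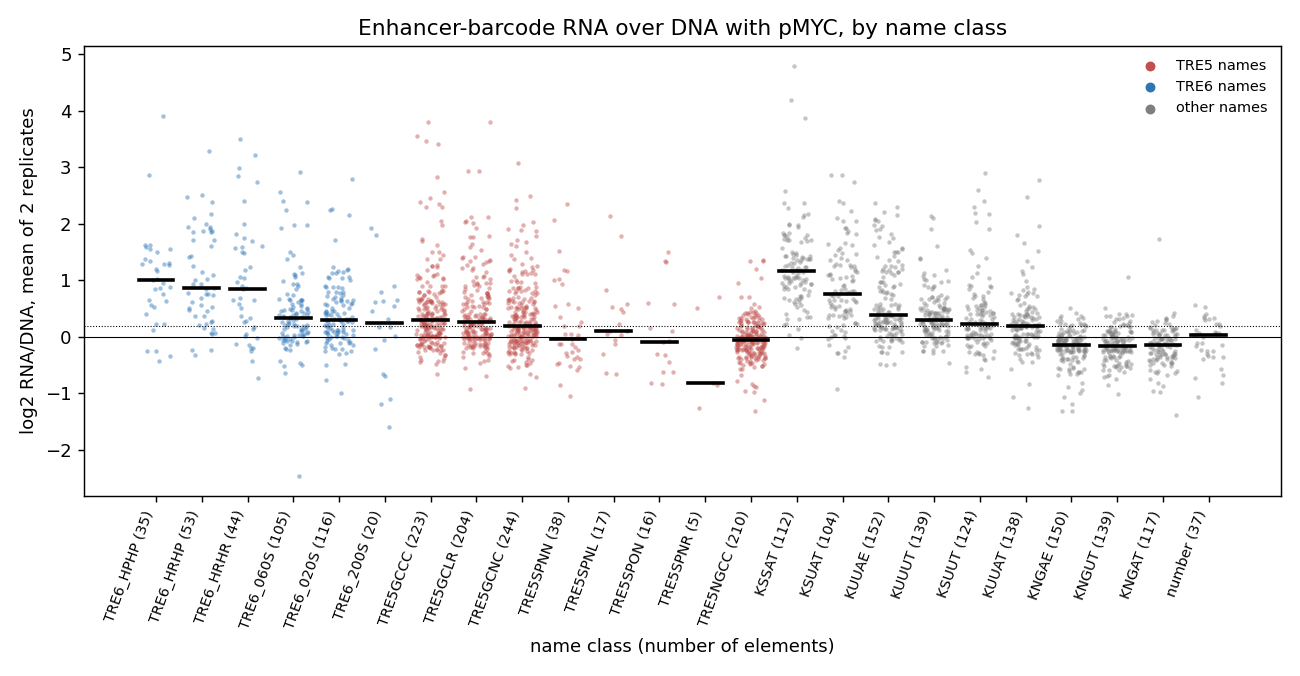
Each point is 1 element, its height the mean log2 RNA/DNA ratio over the replicates, sorted by name class along the horizontal axis with the number of elements in brackets. Black bars are class medians, the dotted line is the median of all elements (0.19) and the solid line is 0, with RSV and classes under 16 elements other than TRE5SPNR left out. The TRE6 classes HPHP, HRHP and HRHR have medians of 1.00, 0.87 and 0.85, between KSUAT (0.75) and KSSAT (1.16). TRE5NGCC lies at -0.07, above the KNG classes and near the number-named elements, which had much the same replicate medians.

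Reference points in the same libraries were read the same way. RSV, an element whose name the labels do not explain, had log2 ratios of 3.48 ± 0.00 forward and 2.56 ± 0.05 in reverse. The 37 elements named by a number alone had a median of 0.03, with 4 higher and 5 lower calls, and the 406 KNG elements had a median of -0.15, with 14 higher and 81 lower. The 112 KSSAT elements stood at the other end, with 99 higher and a median of 1.16, and with 0 lower by limma, at an unadjusted p under 0.05 and by edgeR (1 by limma without RNA replicate 1). TRE5NGCC thus lay above the KNG elements by median and near the number-named elements. The replicate medians were -0.06 and -0.06 in TRE5NGCC and -0.05 and -0.06 in the number-named elements, so these groups are not ranked. The TRE6 classes HPHP, HRHP and HRHR lay between KSSAT and the 104 KSUAT elements, whose median was 0.75 with 74 higher and 1 lower.

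The highest TRE6 element was TRE6_HPHP0043.fwd, with signals of 4977 and 4579 in the RNA libraries and 307 and 331 in the DNA libraries. Its RNA signal was 14.9-fold its DNA signal (log2 ratio 3.90 ± 0.16, SD, n = 2 each; limma adjusted p = 9.7e-21). Both RNA values lay far above both DNA values, a gap much wider than the spread between the libraries. TRE6_HRHR0051.fwd followed with RNA signals of 923 and 691 and DNA signals of 76.3 and 64.5, a log2 ratio of 3.50 ± 0.13. Its reverse orientation, TRE6_HRHR0051.rev, read 639 and 655 in RNA and 70.3 and 67.5 in DNA (3.22 ± 0.07), so this locus was high whichever way it was placed. TRE6_HRHP0032.fwd had RNA signals of 302 and 242 and DNA signals of 27.1 and 27.2 (3.30 ± 0.23), on 54 DNA reads. These 4 were the TRE6 elements called above 8-fold, and all came from the HPHP, HRHR and HRHP classes. Those classes held 132 of the 373 TRE6 elements, and the 4 include both orientations of TRE6_HRHR0051. Over all names, 14 of the 2564 elements were called above 8-fold.

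The next of the TRE6 list were TRE6_HRHR0033.fwd at 2.98 ± 0.31, TRE6_060S0055.rev at 2.92 ± 0.19 and TRE6_HPHP0046.rev at 2.86 ± 0.22. TRE6_HRHR0005.rev reached 2.84 ± 0.27, TRE6_020S0044.fwd 2.79 ± 0.00 and TRE6_HRHR0029.rev 2.74 ± 0.25. Neighbours in this order differ by less than the larger of their SDs, so the order among these 6 is not settled. At TRE6_020S0044.fwd the RNA signals were 829 and 680 and the DNA signals 119 and 97.7. Both kinds fell alike from replicate 1 to 2, so the SD of 0.00 understates the spread between libraries. TRE6_060S0069.rev closed the list at 2.55 ± 0.10, with RNA signals of 5607 and 5308 and DNA signals of 911 and 947, the deepest reading of the 10.

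The highest TRE5 element was TRE5GCLR0047.rev, with RNA signals of 1887 and 1797 and DNA signals of 131 and 131, a log2 ratio of 3.81 ± 0.05 (limma adjusted p = 1.2e-18). TRE5GCCC0106.fwd lay at the same level, with RNA signals of 4113 and 3886 and DNA signals of 299 and 277 (13.9-fold, 3.79 ± 0.02). The difference between these ratios is smaller than the spread between replicates. TRE5GCCC0106.rev had RNA signals of 5519 and 5069 and DNA signals of 449 and 454 (3.55 ± 0.10), so both orientations of this locus exceeded 11-fold, a level that RSV reached in its forward orientation. TRE5GCCC0006.rev was at 3.47 ± 0.23 and TRE5GCCC0079.fwd at 3.41 ± 0.27. TRE5GCNC0117.rev had RNA signals of 1125 and 1357 and DNA signals of 128 and 168 (3.07 ± 0.08). All 6 TRE5 elements above 8-fold were from the GC classes, and 4 of them were GCCC. The GC classes held 671 of the 961 TRE5 elements, and the 6 include both orientations of TRE5GCCC0106.

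Below them came TRE5GCLR0029.rev at 2.94 ± 0.16 and TRE5GCLR0016.rev at 2.93 ± 0.14. TRE5GCCC0004.rev followed at 2.56 ± 0.17, TRE5GCNC0149.fwd at 2.49 ± 0.30 and TRE5GCCC0124.fwd at 2.46 ± 0.04. These readings rested on very unequal depth, with 53 DNA reads behind TRE5GCLR0016.rev and 1469 behind TRE5GCCC0124.fwd. Among the 100 highest ratios of elements with at least 50 DNA reads, 29 were TRE5, 27 TRE6 and 44 other names, while the same groups made up 37.5%, 14.5% and 48.0% of the elements eligible. HRHP gave 9 of the 100 from 51 eligible elements and GCCC 12 from 218, and NGCC gave 0 of its 201.

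**Figure D2:**
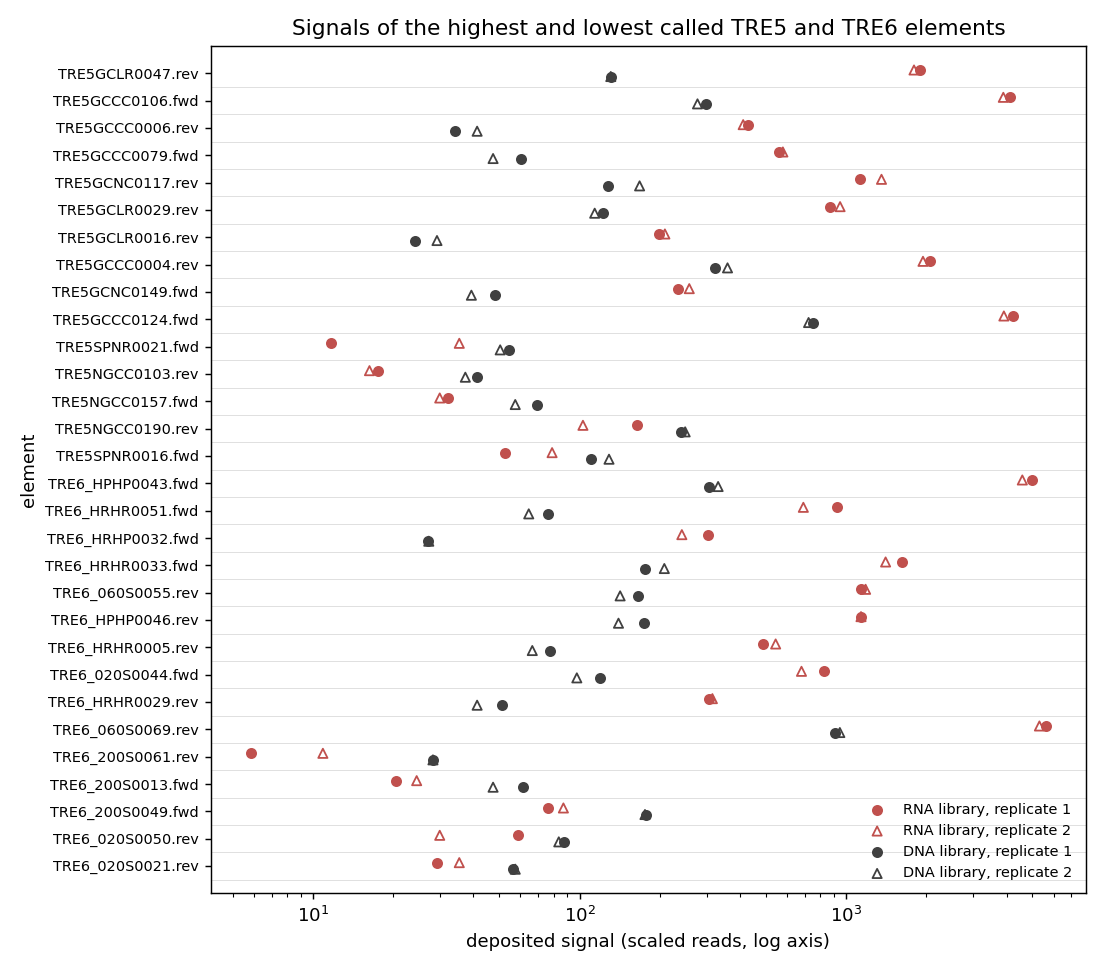
Deposited signals (scaled reads, log axis) of the 10 highest and 5 lowest called TRE5 and TRE6 elements under the naming rule, with RNA libraries in red and DNA libraries in dark grey, circles for replicate 1 and triangles for replicate 2. In the high elements the RNA and DNA symbols stand apart by several times the gap between replicates, as at TRE6_HPHP0043.fwd (4977 and 4579 against 307 and 331), while the low elements rest on small RNA signals, as at TRE6_200S0061.rev (5.86 and 10.9 against 28.1 and 28.2).

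Lower readings were smaller in size and less precise. The lowest TRE6 element under the naming rule, TRE6_200S0061.rev, had RNA signals of 5.86 and 10.9 and DNA signals of 28.1 and 28.2 (log2 ratio -1.60 ± 0.52; limma adjusted p = 0.017), from 6 RNA reads in all. TRE6_200S0013.fwd was at -1.19 ± 0.42, and TRE6_200S0049.fwd at -1.10 ± 0.14 with RNA signals of 76.2 and 87.0 and DNA signals of 178 and 176. The last of these had the most reads of the 3 and the clearest separation of RNA from DNA. TRE6_020S0050.rev (-0.99 ± 0.62) and TRE6_020S0021.rev (-0.77 ± 0.16) completed the list.

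Under the same rule TRE5SPNR0021.fwd was the lowest TRE5 element at -1.26 ± 1.12, with RNA signals of 11.7 and 35.4 and DNA signals of 54.2 and 50.4. Its SD is nearly as large as the reading. TRE5NGCC0103.rev had RNA signals of 17.6 and 16.3 and DNA signals of 41.2 and 37.3 (-1.11 ± 0.02; limma adjusted p = 0.023), from 12 RNA reads in all. TRE5NGCC0157.fwd stood at -0.97 ± 0.11. TRE5NGCC0190.rev was at -0.90 ± 0.50 and TRE5SPNR0016.fwd at -0.86 ± 0.24. The lowest GC elements included TRE5GCCC0172.rev at -0.65 ± 0.20, which was called, while TRE5GCLR0043.rev at -0.92 ± 0.84 and TRE5GCNC0103.fwd at -0.91 ± 0.84, which were not. Of the 11 lower calls in these lists, those of TRE6_200S0049.fwd and TRE5NGCC0190.rev were the ones that held without either DNA library. In the HPHP, HRHP and HRHR classes the lowest elements with at least 50 DNA reads, none of them called, were TRE6_HRHR0027.fwd at -0.73 ± 0.40, TRE6_HPHP0055.rev at -0.43 ± 0.39 and TRE6_HRHP0029.fwd at -0.33 ± 0.08.

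An enhancer is classically described as acting in either orientation, and 1085 loci were read both forward and in reverse with at least 10 DNA reads each. The forward element was higher at 49 loci (4.52%) and the reverse element at 89 (8.20%), by limma on the difference within each library at an adjusted p under 0.05. Across all 1085 loci the forward and reverse ratios correlated at r = 0.71, while replicates of the same elements correlated at r = 0.86. The median absolute difference between orientations was 0.24, against 0.17 between replicates of an element. Of the 404 TRE5 loci, 14 were higher forward and 28 in reverse (10.4% called in all). Of the 141 TRE6 loci, 12 were higher forward and 19 in reverse (22.0%), against 12.7% for all loci. Such a share was not particular to TRE6, since 29.2% of the 48 KSSAT loci and 20.9% of the 43 KSUAT loci were called. In the KNG class KNGAE it was 1.47% of 68 loci. Without the variance trend the calls over all loci fell to 12 forward and 21 reverse. In the same setting they were 2 and 5 in TRE5 and 3 and 4 in TRE6, so these counts rest heavily on the setting. Orientation counts from fits without 1 library are given only as a range in the closing section, since 1 library of that kind remained.

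The orientations correlated at r = 0.70 in TRE5 and r = 0.62 in TRE6. By class the agreement was closest in GCCC (r = 0.85 over 99 loci) and was 0.67 in GCNC (113 loci), 0.61 in GCLR (90 loci) and 0.40 in NGCC (83 loci). Replicates of the same NGCC elements correlated at only 0.48, against 0.83 for GCLR, so that in NGCC the r between orientations came close to the r between replicates. For TRE6 the values were 0.68 in 020S (55 loci), 0.41 in 060S (44 loci) and 0.63 in HRHP (21 loci). These points share libraries, and the correlations are given as descriptions.

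The widest TRE5 difference was at TRE5GCNC0117. Its forward element had RNA signals of 208 and 212 and DNA signals of 187 and 219, a log2 ratio of 0.06, against 3.07 for the reverse element described above. The forward-minus-reverse difference was -3.01 ± 0.06 (limma adjusted p = 6.1e-13), about 8-fold in favour of reverse. TRE5GCLR0029 was alike, at 0.10 forward and 2.94 in reverse (-2.84 ± 0.10; adjusted p = 7.0e-08). In both loci the reverse element was called higher and the forward element was not called.

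TRE6 had differences in both directions. At TRE6_060S0055 the forward element had RNA signals of 243 and 193 and DNA signals of 211 and 213, and the reverse element 1137 and 1183 in RNA against 165 and 142 in DNA. The reverse element was called higher and the forward element was not (forward minus reverse -2.88 ± 0.43; limma adjusted p = 2.2e-12). At TRE6_HRHR0016 the forward element had RNA signals of 331 and 324 and DNA signals of 58.2 and 65.5, and the reverse element 52.7 and 62.5 in RNA and 55.2 and 48.4 in DNA. Here the forward element was called higher and the reverse was not (2.23 ± 0.44; adjusted p = 2.9e-05). At TRE6_HRHP0032 both orientations were higher in RNA, at 3.30 forward and 1.43 in reverse (1.86 ± 0.07; adjusted p = 2.4e-04). The difference of 2.37 ± 0.99 at TRE6_060S0004 (adjusted p = 0.039) rested on a reverse element with 1 RNA read and 26 DNA reads, and this call was lost with the replicate number as a block (adjusted p = 0.17), without the variance trend (0.076), with no minimum of DNA reads (0.061), without RNA replicate 1 (0.11) and with 2 reads added in place of 0.5 (0.13).

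At TRE5 and TRE6 loci with a higher call, opposite calls were few, but many loci were called higher in 1 orientation only. Both orientations were higher at 101 of the 404 TRE5 loci and at 58 of the 141 TRE6 loci, against 322 of all 1085. The forward element alone was called higher at 34 TRE5 and 15 TRE6 loci, against 94 of all loci. The reverse element alone was called higher at 49 and 19, against 119. Among loci higher in 1 orientation only, the difference between orientations was itself called at 21 TRE5 and 11 TRE6 loci, against 57 over all names. A higher call in 1 orientation only is thus not by itself a difference between orientations. One orientation higher and the other lower occurred at 12 loci in all, 6 of them TRE5 and 3 TRE6. The TRE6 cases were TRE6_020S0010 (0.57 forward, -0.22 reverse), TRE6_020S0023 (-0.29 and 0.31) and TRE6_020S0042 (-0.25 and 0.19), named here after their values were seen. All 3 belonged to the 020S class, and the largest of these readings was 0.57.

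**Figure D3:**
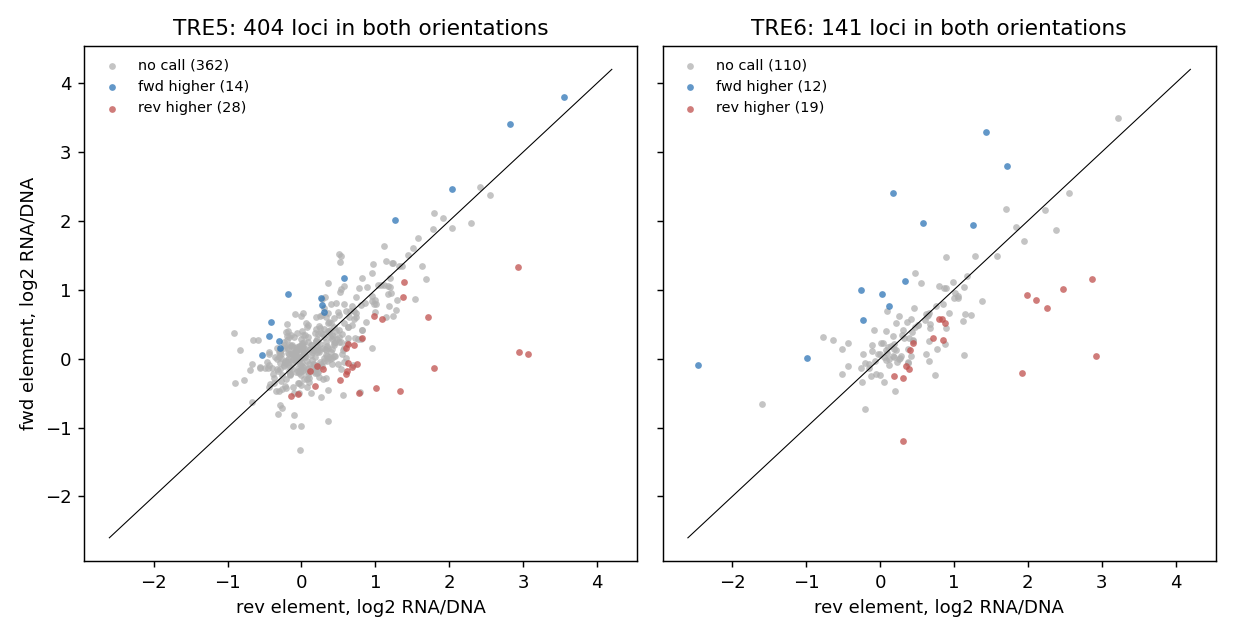
Forward against reverse log2 RNA/DNA ratio for the 404 TRE5 loci (left) and 141 TRE6 loci (right), with the line of equality. Blue loci were higher forward (14 and 12) and red loci higher in reverse (28 and 19) by limma. The TRE5 points on the right edge under the line include TRE5GCNC0117 (0.06 forward, 3.07 reverse), and the TRE6 point at the far left is TRE6_060S0004, whose reverse element has 1 RNA read.

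The precision of a reading followed its depth. The median absolute difference between replicate log2 ratios was 0.81 for the 78 elements under 50 DNA reads and 0.41 for the 185 elements with 50 to 99. It was 0.29, 0.22 and 0.16 in the next depth classes and 0.10 for the 707 elements with 800 or more DNA reads. The smallest called difference was accordingly 0.95 in the shallowest class and 0.14 in the deepest, and the share of elements called was 29.5% in the shallowest class and 58.7% in the deepest. At the deepest TRE6 element, TRE6_060S0042.fwd with 8179 DNA reads, a log2 ratio of 0.22 ± 0.04 was called (limma adjusted p = 4.2e-05). The deepest TRE5 element, TRE5NGCC0036.rev, was called at 0.35 ± 0.07 (adjusted p = 1.6e-05). A ratio of that size was not detectable at the depth of the elements under 50 DNA reads. Across all elements the replicate log2 ratios correlated at r = 0.855, and at r = 0.88 for the 2486 elements with at least 50 DNA reads. The value was 0.371 in TRE5NGCC, where the ratios spanned a narrow range, against 0.872 in the TRE5 GC classes.

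**Figure D4:**
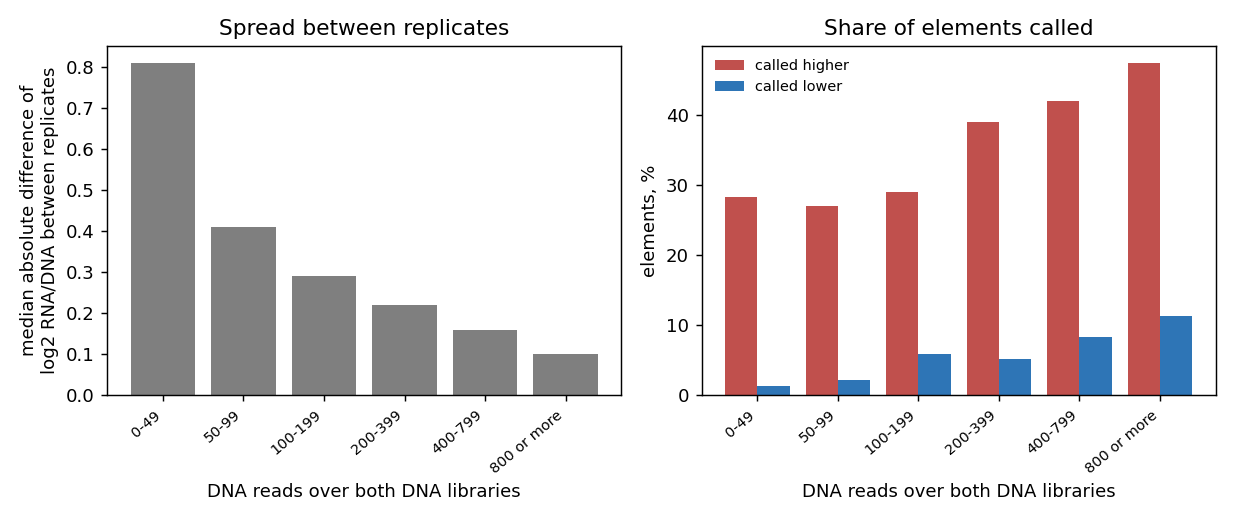
Left, how far the replicates of an element lay apart (median absolute difference of their log2 ratios), and right, the share of elements called higher (red) and lower (blue), by DNA reads over both DNA libraries. The spread is 0.81 under 50 reads and 0.10 at 800 or more, and higher calls make up 28.2% of the elements in the shallowest class and 47.4% in the deepest.

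A few elements were read very differently by the replicates. TRE5NGCC0139.rev had RNA signals of 223 and 150 and DNA signals of 29.1 and 178, giving log2 ratios of 2.92 and -0.24 in the replicates. Its call as higher (1.34 ± 2.24; limma adjusted p = 0.021) rested on the low value of DNA replicate 1, without which the log2 ratio was 0.04 and no longer called. TRE6_HRHR0063.rev had log2 ratios of -1.08 and 1.10, with RNA signals of 26.4 and 81.6 and DNA signals of 58.2 and 38.3. TRE5GCCC0015.rev (0.63 ± 1.48), TRE5NGCC0044.fwd (-0.87 ± 1.48) and TRE5NGCC0132.fwd (-0.49 ± 1.32) also spread widely, and none of these last 4 was called. The members with fewer than 10 DNA reads were TRE5GCCC0192.rev (2.30 ± 0.54), TRE6_HRHR0063.fwd (2.00 ± 2.35) and TRE5NGCC0144.fwd (0.70 ± 1.20). TRE5NGCC0144.fwd, with 1 DNA read and 0 RNA reads, was the member nearest the threshold for inclusion, and none of the 3 was called.

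The promoter barcode of the same plasmids gave a separate reading of each element. Over 2486 elements with at least 50 DNA reads in both tables, the enhancer and promoter log2 ratios correlated at r = 0.84 across elements, which share cells and plasmids. TRE6 elements had a median of 0.45 by enhancer barcode and 0.81 by promoter barcode (361 elements, r = 0.83), and the HPHP, HRHP and HRHR elements 0.89 and 1.93 (126 elements, r = 0.81). TRE5 elements had 0.15 and 0.18 (932 elements, r = 0.80). Of the elements called higher by enhancer barcode, 201 of 205 in TRE6 and 309 of 328 in TRE5 also had a promoter reading above 0, against 956 of 988 over all names. The promoter median over all 2486 elements was itself above 0, at 0.24, so many readings above 0 would be found without a call. The levels are each on the scale of their own table, so enhancer and promoter medians were not tested against each other.

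The read-outs parted at single elements. TRE6_020S0033.rev had an enhancer log2 ratio of 1.14 ± 0.30 and a promoter log2 ratio of 7.23 ± 0.02. TRE5GCLR0189.rev had 1.54 ± 0.15 by enhancer barcode and 7.25 ± 0.17 by promoter barcode. These were the highest promoter readings among TRE5 and TRE6 elements, and both elements, named here after their values were seen, were called higher by enhancer barcode as well (limma adjusted p = 3.0e-05 and 8.3e-06). In TRE5GCCC0124.fwd the order was the other way, with 2.46 ± 0.04 by enhancer barcode and 1.79 ± 0.03 by promoter barcode. Where orientation mattered by enhancer barcode, the promoter barcode differed with the same sign at 32 of 42 called TRE5 loci and 27 of 31 called TRE6 loci. Over all names this held at 113 of 138 called loci, and at 724 of all 1085 loci, called or not. At TRE5GCNC0117 the difference was -3.18 ± 0.11 by promoter barcode. At TRE6_060S0055 it was -1.78 ± 0.05, and the forward element there, not called by enhancer barcode, had a promoter log2 ratio of 2.32 ± 0.09.

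Enhancer barcodes of the other minimal promoters were read from the same RNA and DNA libraries. TRE6 elements had a median of 0.41 with pMYC, against 0.29 with pAPOBEC3F for the same 281 elements (r = 0.91), and TRE5 elements 0.15 with pMYC, against 0.04 with pAPOBEC3F (792 elements, r = 0.84). Set beside pGAPDH, the TRE6 medians were 0.39 with pMYC and 0.04 with pGAPDH (321 elements, r = 0.77), and the TRE5 medians 0.15 with pMYC and -0.02 with pGAPDH (882 elements, r = 0.78). Elements high with one promoter thus tended to be high with the others, while the top of the range over the same elements was 3.79 with pMYC and 2.18 with pGAPDH for TRE5, and 3.50 with pMYC and 1.99 with pGAPDH for TRE6. TRE5GCCC0106.fwd had 3.79 ± 0.02 with pMYC, 3.80 ± 0.09 with pAPOBEC3F and 2.18 ± 0.04 with pGAPDH. TRE6_HRHR0051.fwd had 3.50 ± 0.13 with pMYC, 3.57 ± 0.02 with pAPOBEC3F and 1.99 ± 0.11 with pGAPDH. Each table was scaled by the authors on its own, so levels between promoters were not tested.

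The elements with other names tie these libraries to the smaller pMYC library, which has RNA and DNA libraries of its own. For 1107 elements with at least 50 DNA reads in both, the enhancer log2 ratios correlated at r = 0.91, and 394 of the 401 of them called higher here also lay above 0 there. The median of the 1107 elements was 0.14 here and 0.13 there, so a reading above 0 is common without a call. The highest of all elements here, KSSAT0006.fwd, had RNA signals of 1834 and 1844 and DNA signals of 70.3 and 62.5 (4.78 ± 0.12), above every TRE5 and TRE6 element, while its reverse orientation was at 0.56 ± 0.26.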

How the data were processed

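Members, name lists and tests were chosen with earlier results of these data known. The authors deposited 1 table per minimal promoter, element set and barcode, with a signal per element and library. This deposited signal was a whole number of reads times 1 factor per library for 100% of values (tolerance 0.02 reads). The deposited tables also hold the authors' log2 fold change and mean, test scores and p-values, per the file headers. The submitters' processing notes name fastp, edgeR, limma and hg38, without their roles. The authors' log2 fold changes differed from those computed here by at most 0.0326 over 2561 elements, and 3 elements had no test by the authors.

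Recovered reads with 0.5 added were rescaled by the authors' factor and log2-transformed. RNA minus DNA was fitted with limma 3.58.1 (lmFit, eBayes with trend; R 4.3.3) over all 2564 elements and adjusted by Benjamini-Hochberg, a call being an adjusted p under 0.05. Orientation was tested with the same fit on forward minus reverse log2 signals at loci with at least 10 DNA reads in each orientation. The test was checked on simulated reads. The read number behind each value limits its precision, as does the spread between libraries, which exceeded counting noise. PCR reads are not independent molecules unless molecular identifiers mark them, and whether these libraries had them was not established here. The SD given with a log2 ratio is over the 2 replicate ratios, RNA over DNA libraries of the same number. Same-numbered RNA and DNA deviations correlated at r = -0.034, so the numbers were not used as pairs in the main test. The SD depends on this numbering and can be small where RNA and DNA libraries differ alike.

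Elements named in the text are, for TRE5, TRE6 and other names, the 10 highest and 5 lowest called elements with both replicates on that side, 1 per locus. The highest needed at least 10 RNA and 10 DNA reads and the lowest at least 50 DNA reads. It also took the highest and lowest element of each TRE5 and TRE6 class of at least 20 elements. The 5 widest orientation differences each way, RSV, the 5 largest SDs and the deepest element of each group were added. Not all of these are printed, and of the other names the text prints only RSV and KSSAT0006. Elements outside the rule are marked as named after their values were seen, apart from second orientations of a named locus and the 3 members under 10 DNA reads. Alternatives were edgeR 4.0.16 on recovered reads, the authors' calls, no variance trend, other added reads, minimum DNA reads, other zero points, stricter calls, the replicate block, 1 element per locus and leaving out each library.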

Additional observations from a re-analysis of the deposited data

How the results depend on the processing

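The element calls numbered 1010 higher and 191 lower in all, 332 and 70 in TRE5, and 209 and 16 in TRE6. With edgeR on the recovered reads, 1197 of the 1201 calls were shared, and 1193 were shared with the authors' deposited calls. Counts stayed within 1.5 times of these under edgeR, the authors' calls, 0.1 or 2 reads added, at least 10 or 50 DNA reads, zero set on number-named elements, and the replicate block, which gave 1015 higher and 198 lower calls, and 45 forward and 77 reverse calls. Its calls shared 1189 of the 1201. Without the variance trend lower calls fell to 121 (TRE5 43). With zero at the median of all elements lower calls were 525 (TRE5 205, TRE6 36). At an adjusted p under 0.01 lower calls were 82 (TRE5 37, TRE6 8). Asking for an absolute log2 ratio of at least 1 left 405 higher and 10 lower calls (TRE5 116 and 2, TRE6 95 and 4). With 1 element per locus there were 568 higher and 111 lower calls of 1476 (TRE5 180 and 37, TRE6 133 and 8), fewer elements being tested. Leaving out a library gave lower calls of 55 to 313 (TRE5 24 to 119, TRE6 2 to 26).

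The median log2 ratio over all elements was 0.19 with 0.1 reads added, 0.21 with 2 reads added, 0.00 with zero at the median, 0.17 with zero on number-named elements and 0.18 with 1 element per locus, and ran from 0.19 to 0.22 when a library was left out. For TRE5 it was 0.18 with 2 reads added, -0.04 with zero at the median, which reversed its sign, 0.13 on number-named elements and 0.13 with 1 element per locus, with 0.15 to 0.17 when a library was left out. For TRE6 it was 0.26 with zero at the median and 0.51 with 1 element per locus.

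The 77 elements of the naming rule include some that the text does not print. Of the 77, 11 lost their call at an adjusted p under 0.01 and 10 at an absolute log2 ratio of at least 1. Without the variance trend 8 lost it, and with 2 reads added 4 did. With zero at the median of all elements, 2 lost their call, 4 gained a call and 1 gained a call with its sign changed. No named element called in the main test reversed its sign under any alternative run.

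Orientation calls were 49 forward and 89 reverse. They were 12 and 21 without the variance trend, 31 and 59 at an adjusted p under 0.01, and 16 and 28 at an absolute difference of at least 1. Leaving out a library gave 19 to 130 forward and 36 to 183 reverse. The causes of these shifts were not tested. Depth limits readings of elements under 50 DNA reads most.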
